A study of Mus musculus with 18 samples.

Results

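LPS-tolerant bone marrow-derived macrophages (BMDMs) were compared with LPS-primed BMDMs, to find what a second dose of LPS changed in macrophages that had already met a high dose. The comparison takes every sample that the labels place in these groups without carboplatin, 6 of the 18 samples of the series, with 3 biological replicates in each group. BMDMs are macrophages grown from bone marrow in medium conditioned by L929 cells, here from female C57BL/6 mice for which the sources used here give no genetic change and no age. The LPS-primed group received LPS at 100 ng/ml for 24 h. The LPS-tolerant group received the same priming, after which its medium was replaced by fresh medium holding LPS at 10 ng/ml for 3 h. The second dose, the fresh medium with its serum and the 3 further hours therefore came together and cannot be told apart. Unstimulated BMDMs and BMDMs given only LPS at 10 ng/ml for 3 h (LPS-stimulated) show the first response to the same dose. LPS-primed and LPS-tolerant BMDMs treated with 25 µM carboplatin, a platinum drug, show the second dose again in other samples. The study added the drug before the priming LPS, and names only LPS in the fresh medium of the second dose. Results given with carboplatin refer to this earlier treatment.

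LPS, a component of the outer membrane of Gram-negative bacteria, is sensed by TLR4 together with CD14 and MD-2. The adaptor MyD88 leads from there to NF-kB and MAP kinases and to early cytokine and chemokine genes, and the adaptors TRAM and TRIF lead to type I interferon and its target genes. Macrophages that have met LPS answer a further dose with less of many inflammatory products, a state called endotoxin tolerance, while other genes can still be induced.

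The gene counts of the 6 samples summed to 8172462 to 11351065 read pairs, and 11305 genes passed the filter on low counts and were tested. Normalized counts are read-pair counts scaled to a common library size, and a value of a few counts carries a wide sampling error. Macrophage markers were abundant in every sample: Adgre1, which encodes F4/80, had 29032 to 43560 raw counts in LPS-primed and 21025 to 40228 in LPS-tolerant BMDMs. Summed over the 10 macrophage markers, the level was 280400 to 283200 normalized counts in LPS-primed and 255300 to 310500 in LPS-tolerant BMDMs. Of these 10 genes 3 were called lower, the receptor genes Mertk (log2FC -1.65), Fcgr1 (-0.45) and Adgre1 (-0.32), and without the block Mertk alone. Defining markers of other cells were at or near 0, with Mpo, Ly6g and Cxcr2 at 0 counts in all 6 samples for neutrophils. All 5 erythroid markers, 6 of 8 T and NK cell markers, 4 of 6 B cell markers, 4 of 7 dendritic cell markers and 4 of 5 mast cell markers were at 0 as well. The neutrophil list summed to 1620 to 2212 normalized counts in LPS-primed and 1081 to 1280 in LPS-tolerant BMDMs, nearly all from Csf3r (log2FC -0.94, called lower with and without the block) and S100a8 (0.49, not called). The osteoclast list (574.2 to 981.1 against 703 to 1160) and the stromal list (27.5 to 70.3 against 45.6 to 79.3) overlapped between the groups, with 1 of 4 tested osteoclast markers, Ctsk (log2FC 0.61), called higher and none without the block. In bulk samples, fewer cells of a type and less RNA per cell cannot be told apart.

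The second dose changed far fewer genes than the first, but it still reached 18% of those tested. At an adjusted p under 0.05, 1093 genes (9.67% of those tested) were higher and 941 (8.32%) were lower in LPS-tolerant BMDMs, by edgeR's quasi-likelihood test with the replicate number as a block. Genes with a change above 2 on the log2 scale, the limit that the study uses, numbered 59 higher (0.522%) and 49 lower (0.433%), and those above 1 numbered 291 higher (2.57%) and 325 lower (2.87%). Of the 2034 genes called, 2022 had 1 direction in each of the 3 pairs with the same number. The blocked test used the same pairs, so this is a description and no added support. In 874 of the higher and 767 of the lower genes the groups did not overlap. Over all tested genes, 12.6% had non-overlapping groups with the LPS-tolerant samples higher and 13.6% with them lower. Without the replicate block, 407 genes were called higher and 306 lower, all of them among the 2034. Leaving out LPS-tolerant replicate 3 lowered the count to 1135, leaving out LPS-primed replicate 2 to 1291 and leaving out LPS-primed replicate 3 to 1303. The count of higher genes was 668 without LPS-tolerant replicate 3. That of lower genes was 582, 606 and 467 without LPS-tolerant replicates 1, 2 and 3 and 537 and 558 without LPS-primed replicates 2 and 3. With library size alone in place of TMM scaling, 776 genes were higher and 1395 lower, so that 35.7% of the calls were higher instead of 53.7%, and the median log2FC of all genes moved from -0.02 to -0.12.

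Of called genes with a mean of at least 50 normalized counts in the higher group, gene models left out, 10 rose most. They were Id1, Fosl1, Myc, Id3, Olr1, Ccnd1, Nr4a1, Csf3, Atp2b4 and Tnf. Id1, an inhibitor of basic helix-loop-helix factors (GRCm39 chromosome 2, 152566218 to 152579544, plus strand), had 16.9, 4.56 and 9.38 normalized counts in LPS-primed replicates 1, 2 and 3 and 277, 269 and 191 in the LPS-tolerant ones. All LPS-tolerant samples lay far above the LPS-primed ones, with a log2FC of 4.57 ± 0.43 (SE, adjusted p = 2.05e-06). Its relative Id3 went from 18, 17.1 and 23.4 to 205, 215 and 298 normalized counts (log2FC 3.60 ± 0.31). Myc, which drives growth and ribosome production (chromosome 15, 61857227 to 61862223, plus strand), had 75.1, 26.2 and 27.2 normalized counts before and 680, 497 and 538 after the second dose. The lowest LPS-tolerant sample held far more Myc than the highest LPS-primed one (log2FC 3.80 ± 0.24, adjusted p = 5.89e-08). Ccnd1, which encodes cyclin D1 (chromosome 7, 144483668 to 144493662, minus strand), rose from 22.2, 58.1 and 9.38 to 163, 419 and 322 normalized counts (log2FC 3.42 ± 0.55, adjusted p = 0.000353).

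Tnf (chromosome 17, 35418357 to 35420983, minus strand) was among these genes. It had 285, 353 and 267 normalized counts in the LPS-primed replicates and 2555, 2038 and 2258 in the LPS-tolerant ones. The samples of each group lay close together and the groups were well apart, with a 7.55-fold rise (log2FC 2.92 ± 0.24, adjusted p = 7.61e-07). Olr1, which encodes the oxidized LDL receptor LOX-1, rose from 26.5, 17.1 and 16.9 to 198, 263 and 221 normalized counts (log2FC 3.48). The AP-1 factor Fosl1 (log2FC 3.81), the nuclear receptor Nr4a1 (3.36) and the calcium pump Atp2b4 (2.98) also rose, with no overlap between their groups. Fosl1 overlaps Ccdc85b and Ccnd1 overlaps LTO1 on the opposite strand, and the strand setting of the counting is not given in the sources used here, so that reads of these pairs cannot be told apart. The same holds for Tnip1, Arg2, Hmgcs1, Pfkm, Sqstm1, Dbp and Cbx5, described further on, while Ticam2 and Txnrd1 overlap a tested gene on their own strand. Csf3, which encodes the neutrophil growth factor G-CSF, was the uneven case, with 79.4, 5.7 and 15 normalized counts in LPS-primed and 1071, 30.2 and 103 in LPS-tolerant BMDMs. Replicate 1 was the highest in both groups and the groups overlapped. Its log2FC was 3.16 (adjusted p = 0.00447), but 1.78 (adjusted p = 0.0835) without LPS-tolerant replicate 1, and the adjusted p was 0.0669 without the replicate block.

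**Figure D1:**
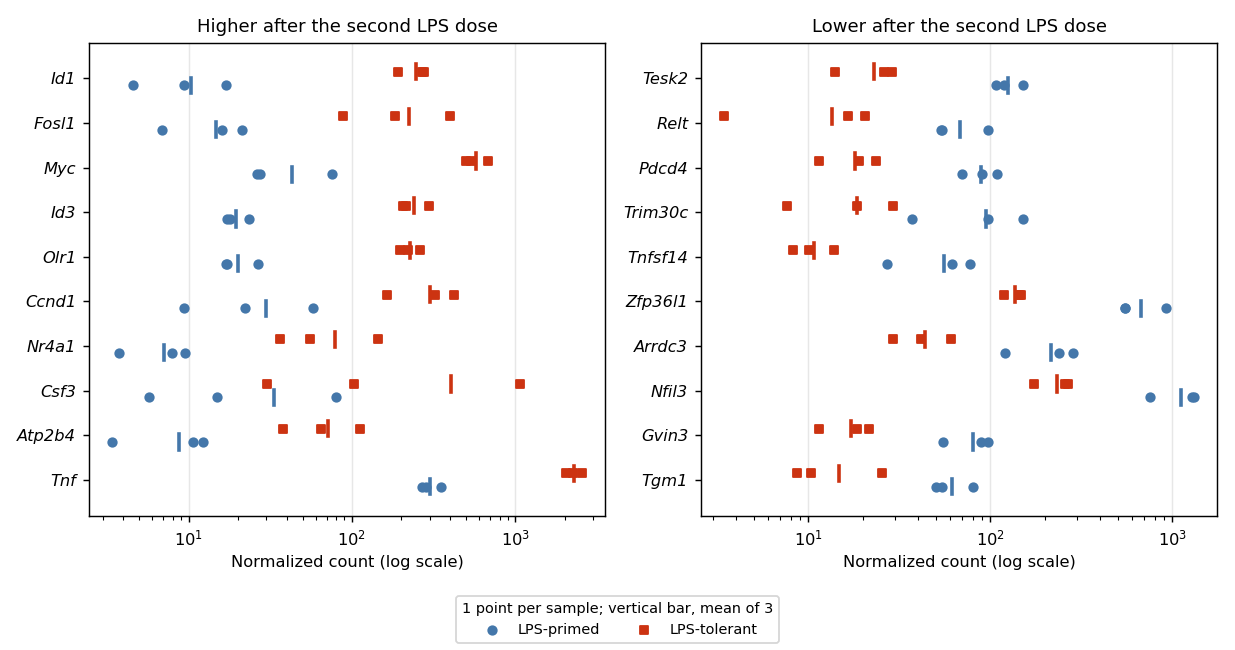
Normalized counts (log axis) of the 10 genes with the largest rise and the 10 with the largest fall among called genes with a mean of at least 50 in the higher group, with 1 point per sample and the mean of 3 as a bar. The groups do not overlap for any gene shown except Csf3, and LPS-tolerant Tnf sits at 2038 to 2555 against 267 to 353 in LPS-primed BMDMs.

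Within the same limits, the 10 genes with the largest falls were Tesk2, Relt, Pdcd4, Trim30c, Tnfsf14, Zfp36l1, Arrdc3, Nfil3, Gvin3 and Tgm1. Nfil3, which encodes a basic leucine zipper repressor tied to the circadian clock and to immune cells (chromosome 13, 53121245 to 53137010, minus strand), had 1286, 752 and 1316 normalized counts in LPS-primed and 257, 174 and 269 in LPS-tolerant BMDMs. Every LPS-tolerant sample lay below every LPS-primed one, with a log2FC of -2.24 ± 0.14 (adjusted p = 5.89e-08). Zfp36l1, whose product speeds the decay of AU-rich mRNAs, went from 550, 925 and 549 to 148, 119 and 144 normalized counts (log2FC -2.26 ± 0.30). Pdcd4, an inhibitor of translation initiation, fell from 90, 69.5 and 109 to 11.4, 19 and 23.7 (log2FC -2.29 ± 0.27). The arrestin-like gene Arrdc3 (log2FC -2.25), the kinase gene Tesk2 (-2.45), the TNF receptor family member Relt (-2.43) and the cytokine gene Tnfsf14, which encodes LIGHT (-2.26), fell as well. Tgm1, which encodes transglutaminase 1, fell too (log2FC -2.14, adjusted p = 0.0109), with an adjusted p of 0.0674 without LPS-tolerant replicate 3 and 0.0718 without the replicate block. Trim30c (-2.28) and the interferon-inducible GTPase gene Gvin3 (-2.20) belong to families of similar genes, between which the counting could have split reads. Tesk2 shares its strand with Ccdc163, and Pdcd4 overlaps Bbip1 on the opposite strand.

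For comparison with the gene lists that follow, 9.67% of all tested genes were called higher and 8.32% lower. Without the block these were 407 and 306 of 11305 genes. Among chemokines, the signals that draw leukocytes, 7 of 22 tested members rose and none fell, and the median log2FC was 0.95 against -0.02 over all tested genes. It was 0.80 with Cx3cl1, which had 0 counts in the LPS-primed samples, set at the value that 3 counts over that group would give. It was 0.51 without LPS-tolerant replicate 3 and 1.48 without LPS-primed replicate 1. Ccl3, which encodes MIP-1 alpha, had 910, 414 and 928 normalized counts in LPS-primed and 5981, 3564 and 5473 in LPS-tolerant BMDMs. The groups did not overlap, and the log2FC was 2.76 ± 0.24 (adjusted p = 9.48e-07). Its neighbour in function Ccl4 rose from 185, 163 and 224 to 1319, 1030 and 1298 (log2FC 2.66). Ccl2, the main attractant of monocytes, went from 3411, 1285 and 688 to 19220, 5601 and 8968 normalized counts. Replicate 1 was the highest in both groups, and the log2FC was 2.75 ± 0.34 (adjusted p = 3e-05), with an adjusted p of 0.0578 without the replicate block. The neutrophil attractant Cxcl2 had 4182, 1524 and 2302 before and 11212, 3449 and 6461 after the second dose, so that the groups overlapped while each pair rose (log2FC 1.38, adjusted p = 3.40e-05, and 0.0700 without the block). Without the block, 3 chemokines were called. The interferon-dependent Cxcl9 (log2FC -0.82) and Cxcl10 (0.63) did not pass the test, nor did Ccl5 (-0.45). These 3 were chosen after their values were seen.

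Cytokines were mixed, with 6 of 23 tested members higher and 2 lower. Besides Tnf and Csf3, Il1a (alarmin IL-1 alpha) had 1914, 375 and 1047 normalized counts in LPS-primed and 8050, 828 and 2770 in LPS-tolerant BMDMs. Each pair rose while the groups overlapped (log2FC 1.63 ± 0.38, adjusted p = 0.00670). The call of Il1a was lost without LPS-tolerant replicate 1 (adjusted p = 0.0667) and without the block (0.139). Tgfb1, an anti-inflammatory growth factor, rose from 3150, 3181 and 2385 to 4202, 4105 and 3529 normalized counts (log2FC 0.45, adjusted p = 0.00480, and 0.0848 without the block). Il15, which sustains NK and memory T cells, fell from 230, 202 and 200 to 53.2, 70.8 and 26.8 (log2FC -2.06 ± 0.26, adjusted p = 3.22e-05). Without LPS-tolerant replicate 1, 2 cytokines were called higher, and without the block 1 was. Il6 did not pass the test. It had 123, 6.84 and 80.6 normalized counts in LPS-primed and 438, 12.1 and 64.9 in LPS-tolerant BMDMs, a wide spread in each group, with a log2FC of 0.81 ± 0.51 (adjusted p = 0.291) that turned to -0.09 without LPS-tolerant replicate 1.

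Immediate-early factors, which cells induce within minutes to hours without new protein synthesis, counted 10 higher and 1 lower of 22 tested, with a median log2FC of 0.77, and 6 were called higher without the block. Myc, Fosl1 and Nr4a1 led them. Nr4a3, which encodes NOR1, had no count in the LPS-primed samples and 5, 3 and 6 counts in the LPS-tolerant ones. With 3 counts taken over the LPS-primed group it was 4.32-fold higher, a value that leaves out the sampling error of the LPS-tolerant counts. Maff, a small MAF protein, rose from 55, 44.4 and 45 to 127, 117 and 115 normalized counts (log2FC 1.32 ± 0.19). The major AP-1 genes did not pass the test: Fos had a log2FC of 0.54, Jun of 0.58 and Junb of 0.05, values that were picked out after they were seen. Btg2, an anti-proliferative gene, was the lower one (log2FC -0.88, adjusted p = 0.0393), with its call lost in 4 of the 6 fits that left out a sample: without LPS-tolerant replicates 2 (adjusted p = 0.156) and 3 (0.106) and LPS-primed replicates 1 (0.195) and 3 (0.0894). Its adjusted p was 0.239 without the block. With at least 10 counts required in each of the 6 samples, 6 members of the list were called higher.

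The machinery of LPS sensing and of its control moved in parts. Of 22 NF-kB subunits and inhibitors 5 were higher and 4 lower, with 2 in each direction without the block. Tnfaip3, which encodes the deubiquitinase A20, had 676, 852 and 917 normalized counts in LPS-primed and 1757, 1974 and 1783 in LPS-tolerant BMDMs. Its groups were well apart (log2FC 1.18 ± 0.11, adjusted p = 2.05e-06). Nfkb1, which encodes p105 and p50, rose from 1500, 1545 and 1445 to 2832, 2425 and 2176 (log2FC 0.73), and the A20-binding gene Tnip1 had a log2FC of 0.54 (adjusted p = 0.00331, and 0.0832 without the block). In the other direction, the atypical inhibitor Bcl3 fell from 944, 1025 and 736 to 543, 219 and 303 (log2FC -1.41 ± 0.21, adjusted p = 0.000138), and the ubiquitin ligase gene Birc3 from 2188, 2031 and 2532 to 1580, 1462 and 1604 (log2FC -0.53). With 1 sample left out, 3 to 5 members were called higher (3 without LPS-tolerant replicate 1) and 2 to 4 lower (2 without LPS-tolerant replicate 1 or 3, or LPS-primed replicate 1 or 3).

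Among 26 genes that restrain TLR signalling, 7 were higher and 4 lower, with 3 and 2 without the block. Dusp4, a nuclear phosphatase of MAP kinases, rose from 144, 90 and 110 to 558, 518 and 668 normalized counts (log2FC 2.36 ± 0.28), and the ERK phosphatase gene Dusp5 from 95.3, 30.8 and 21.6 to 339, 86.4 and 98.8 (log2FC 1.81, adjusted p = 0.00201, and 0.134 without the block). Dusp5 overlapped between the groups through replicate 1, the highest sample in each. Tollip, which binds IRAK1, had a log2FC of 0.74 and the RNase gene Zc3h12c rose 2.82-fold (adjusted p = 0.000119, and 0.168 without the block). Besides Zfp36l1, the TRAF-binding gene Trafd1 fell from 1241, 1903 and 1209 to 599, 754 and 499 (log2FC -1.23). Socs3, which restrains IL-6 signalling, had 2819, 2342 and 1968 normalized counts before and 2631, 592 and 1093 after the second dose, with little difference in replicate 1. Its log2FC of -0.89 (adjusted p = 0.0337) became -1.39 without LPS-tolerant replicate 1 and -0.53 without replicate 2, and its call was lost without LPS-tolerant replicates 2 (adjusted p = 0.180) and 3 (0.131), LPS-primed replicates 2 (0.155) and 3 (0.0517), and the block (0.296). The number of higher members fell to 4 without LPS-tolerant replicate 3, and that of lower members to 2 without LPS-tolerant replicate 3 or LPS-primed replicates 2 or 3.

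Of 20 receptor and adaptor genes, 3 were higher and 4 lower, with 1 in each direction without the block. Ticam2, which encodes TRAM, the adaptor between TLR4 and TRIF, went from 189, 191 and 361 to 44.3, 57.9 and 80.3 normalized counts. Its groups were apart and its log2FC was -2.01 ± 0.30 (adjusted p = 0.000161). Irak2, a kinase-like protein of the MyD88 branch, rose from 595, 396 and 480 to 1074, 895 and 908 (log2FC 0.98 ± 0.12, adjusted p = 2.19e-05). Tlr4 itself had 894, 1112 and 1600 normalized counts in LPS-primed and 589, 903 and 798 in LPS-tolerant BMDMs, with overlapping groups and a log2FC of -0.62 (adjusted p = 0.0154). That call was lost without LPS-tolerant replicates 1 (adjusted p = 0.0621) or 3 (0.111), LPS-primed replicate 3 (0.0774) or the block (0.186). Cd14 (log2FC 0.44) and Myd88 (0.05) did not pass the test and were named after their values were seen. As single samples were left out, 1 to 3 members were higher (1 without replicate 3 of either group) and 2 to 3 lower (2 without LPS-tolerant replicate 1 or 2).

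Interferon-stimulated genes were lower as a list. Of 44 tested members, 19 fell and none rose, 43 had a log2FC below 0, and the median was -0.87. Trim30a, a regulator of TLR signalling, had 993, 1931 and 1831 normalized counts in LPS-primed and 524, 998 and 631 in LPS-tolerant BMDMs. Its groups overlapped by LPS-primed replicate 1 and LPS-tolerant replicate 2, while each pair fell (log2FC -1.14 ± 0.23, adjusted p = 0.00254, and 0.0503 without the block). Ddx58, which encodes the RNA sensor RIG-I, fell from 1262, 1602 and 1447 to 506, 898 and 521 (log2FC -1.18 ± 0.25, adjusted p = 0.00372). The transcription factor gene Irf1 went from 351, 695 and 512 to 242, 296 and 298 (log2FC -0.88), and the GTPase gene Ifi47 from 557, 982 and 654 to 184, 374 and 229 (log2FC -1.48). Stat2 (log2FC -1.13), whose product carries the interferon signal to the nucleus, was also called, and it was named after its value was seen. How many members passed the test depended on the spread used: 5 fell without the block and 40 in a fit of the 6 samples alone. With 1 sample left out, 5 were called lower without LPS-tolerant replicate 1, LPS-tolerant replicate 3 or LPS-primed replicate 2 and 8 without LPS-primed replicate 3, and the median stayed between -1.07 and -0.69.

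Antigen presentation genes counted 2 higher and 5 lower of 19, with a median log2FC of -0.26 (-0.13 without LPS-tolerant replicate 2). Tap1, which pumps peptides into the endoplasmic reticulum for MHC class I, had 1302, 1504 and 1260 normalized counts in LPS-primed and 586, 530 and 571 in LPS-tolerant BMDMs. Its groups were apart (log2FC -1.27 ± 0.16, adjusted p = 2.45e-05). Tap1 and the immunoproteasome gene Psmb9 (log2FC -0.74) overlap on opposite strands, so reads between them cannot be told apart. Psmb9 lost its call without LPS-tolerant replicates 2 (adjusted p = 0.0803) or 3 (0.0657), LPS-primed replicates 2 (0.116) or 3 (0.0588), or the block (0.0793). The costimulator Cd86 rose from 222, 54.7 and 75 to 499, 254 and 325 (log2FC 1.73 ± 0.31, adjusted p = 0.000825, and 0.0585 without the block). Cd40, a costimulatory receptor, had 74.1, 85.4 and 86.3 before and 91.2, 73.4 and 126 after the second dose and did not pass the test (log2FC 0.23, adjusted p = 0.532; -0.00 without LPS-tolerant replicate 3). The count of lower members was 1 without LPS-tolerant replicate 2 or 3 or LPS-primed replicate 3, 2 without LPS-primed replicate 2, 3 without LPS-tolerant replicate 1 and 1 without the block. That of higher members was 1 without LPS-tolerant replicate 1 or 3 or LPS-primed replicate 2 or 3, and 0 without the block.

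**Figure D2:**
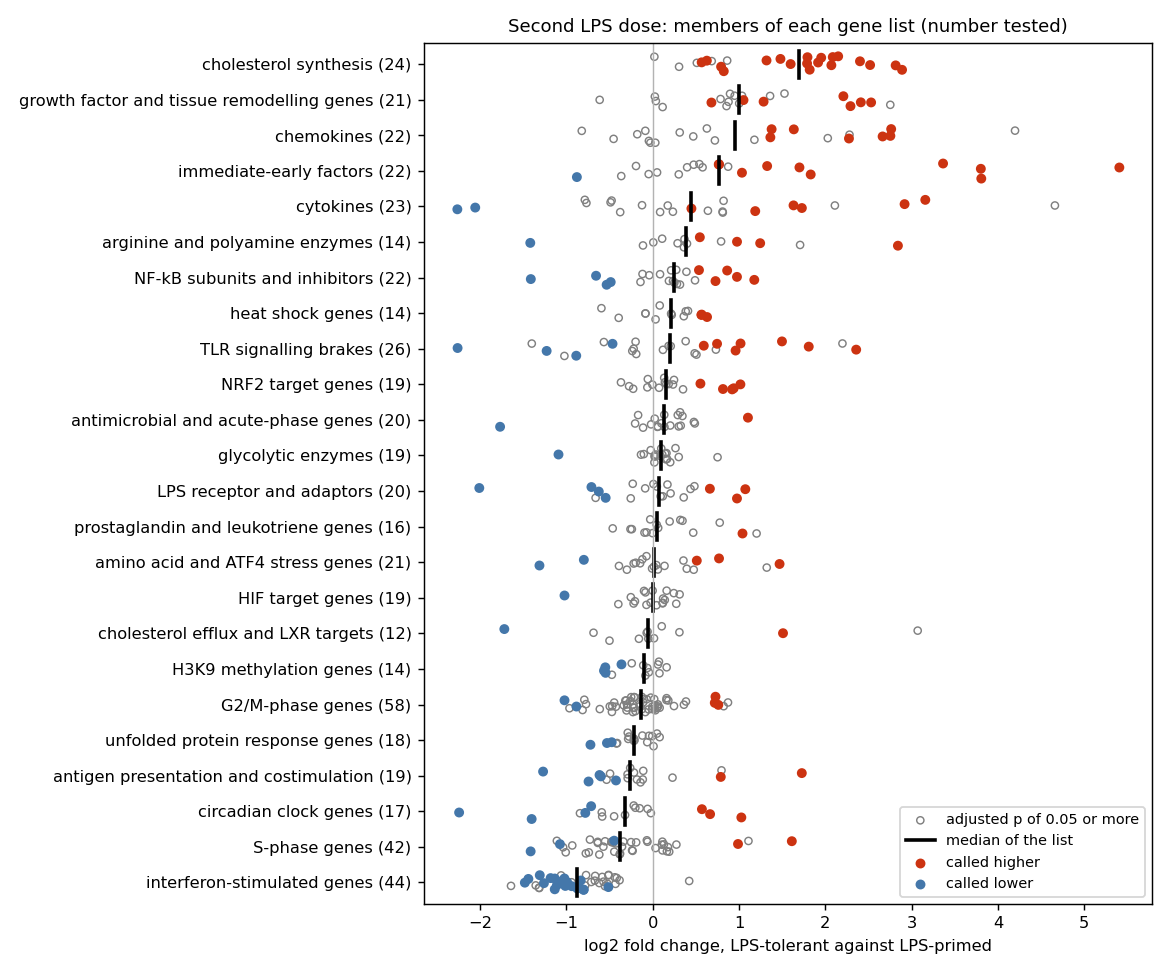
Log2 fold change of each tested member of the 24 gene lists (number tested in brackets), with filled points for genes at an adjusted p under 0.05 and a black bar at the list's median. The cholesterol synthesis list lies highest, with a median of 1.69 and all 24 points above 0, and the interferon-stimulated list lowest, with a median of -0.87.

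Cholesterol synthesis, the pathway from acetyl-CoA through mevalonate and squalene that SREBP2 turns on, was the list that rose most evenly. Of 24 tested members 19 were higher and none lower, all 24 had a log2FC above 0, and the median was 1.69. Sqle (squalene epoxidase) had 447, 423 and 539 normalized counts in LPS-primed and 1913, 3282 and 2935 in LPS-tolerant BMDMs. The groups were far apart, with a log2FC of 2.52 ± 0.22 (adjusted p = 9.48e-07). Hmgcs1, which encodes HMG-CoA synthase, rose from 255, 452 and 517 to 1083, 2207 and 1870 (log2FC 2.07), and Msmo1, which acts on sterol intermediates, from 409, 559 and 592 to 1412, 2577 and 2122 (log2FC 1.95). The SREBP retention gene Insig1 (log2FC 2.15) rose with them and was named after its value was seen. Without the block 15 members were called higher, and 16 to 18 with 1 sample left out. Sqle overlaps Washc5 on the opposite strand.

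The genes of cholesterol export and LXR response counted 1 higher and 1 lower of 12, beside 18% of all tested genes called. Abcg1, which exports cholesterol to HDL, fell from 482, 481 and 506 to 143, 123 and 182 normalized counts. The groups were tight and apart (log2FC -1.72 ± 0.14, adjusted p = 7.61e-07). Plin2, which coats lipid droplets, rose from 12750, 11066 and 9249 to 31169, 30170 and 31936 (log2FC 1.51 ± 0.14, adjusted p = 1.35e-06). Abca1, the other main exporter, had a log2FC of -0.69 and did not pass the test, a value picked out after it was seen. With library size alone 3 members of this list were called lower, and 2 without LPS-tolerant replicate 1.

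Growth factor and tissue remodelling genes counted 7 higher and none lower of 21, with a median log2FC of 1.00. Without the block 5 were higher, without the filter on low counts 12, and in a fit of the 6 samples alone 15 were higher and 1 lower. Pdgfb, a growth factor of mesenchymal cells, had 38.1, 47.9 and 48.8 normalized counts in LPS-primed and 203, 223 and 236 in LPS-tolerant BMDMs. Its groups were tight and apart (log2FC 2.29 ± 0.24, adjusted p = 5.81e-06). The urokinase receptor gene Plaur rose from 1062, 543 and 451 to 5345, 1806 and 2534 (log2FC 2.21 ± 0.27) and urokinase itself, Plau, from 101, 113 and 50.6 to 401, 710 and 281 (log2FC 2.41 ± 0.39). Spp1, which encodes osteopontin, went from 11337, 3575 and 6522 to 22312, 6155 and 16539, with overlapping groups and a rise in each pair (log2FC 1.05, adjusted p = 0.000697, and 0.356 without the block).

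Of 14 tested arginine and polyamine genes 4 were higher and 1 lower, with 2 and 0 without the block. Odc1, ornithine decarboxylase, the entry to polyamines, had 774, 676 and 336 normalized counts in LPS-primed and 7079, 2345 and 3463 in LPS-tolerant BMDMs. The groups did not overlap (log2FC 2.84 ± 0.28, adjusted p = 2.82e-06). Azin1, which protects that enzyme, rose from 677, 1028 and 983 to 1588, 2798 and 2080 (log2FC 1.24). The mitochondrial arginase Arg2 fell from 564, 345 and 451 to 314, 101 and 135 (log2FC -1.42, adjusted p = 0.000931, and 0.0848 without the block). With library size alone, or without LPS-tolerant replicate 1 or 3 or LPS-primed replicate 3, 2 were higher.

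Nos2, the inducible nitric oxide synthase that uses the same substrate, stood in the antimicrobial list, where 1 of 20 members rose and 1 fell. That share lay below the 18% of all tested genes called. Nos2 had 3891, 835 and 3172 normalized counts in LPS-primed and 1631, 210 and 683 in LPS-tolerant BMDMs. Replicate 2 was lowest in both groups and the groups overlapped, but each pair fell (log2FC -1.77 ± 0.28, adjusted p = 0.000337, and 0.182 without the block). The protease inhibitor gene Slpi rose from 1756, 436 and 839 to 3321, 801 and 2400 (log2FC 1.10, adjusted p = 1.69e-05, and 0.281 without the block). Saa3, an acute-phase protein gene, had 490853, 426880 and 486808 normalized counts before and 443984, 491379 and 519547 after (log2FC 0.05, adjusted p = 0.840), and the scavenger receptor gene Marco 1716, 6183 and 5462 before and 1354, 9012 and 6774 after (log2FC 0.20, adjusted p = 0.585). Neither passed the test, and without the block no member of the list did.

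Of 19 NRF2 targets 5 were higher and none lower, 3 without the block. The autophagy receptor gene Sqstm1 rose from 7449, 7196 and 6956 to 15663, 12943 and 12461 normalized counts (log2FC 0.92 ± 0.12) and thioredoxin reductase, Txnrd1, from 1953, 1872 and 1981 to 3737, 3602 and 3785 (log2FC 0.94 ± 0.13). Both were tight within groups. Gclc, which makes glutathione, had a log2FC of 0.81. Glycolytic enzymes counted 1 lower (Pfkm, log2FC -1.09) and none higher of 19, with Pkm at 0.10 (adjusted p = 0.623). Of 19 HIF targets, the glycolytic regulator Pfkfb3 fell from 2757, 3143 and 3131 to 1600, 1301 and 1469 (log2FC -1.03 ± 0.22, adjusted p = 0.00436) and no other member was called, with Hif1a at -0.40 (adjusted p = 0.0637). Hif1a was the member of this list with the highest mean, and it was called in 1 of the 6 fits with a sample left out. The called shares of the glycolytic and HIF lists, 1 of 19 each, lay below the 18% of all tested genes.

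The called shares of the stress and prostaglandin lists (3 of 18, 3 of 14, 5 of 21 and 1 of 16) stood beside 18% of all tested genes. Unfolded protein response genes counted 3 lower and none higher of 18 (median log2FC -0.22), of which none was called without the block, without LPS-tolerant replicate 3 or without LPS-primed replicate 2, and 1 or 2 without each other sample. Heat shock genes counted 3 higher of 14, among them the cochaperone gene Bag3 (log2FC 0.57, adjusted p = 0.00465, and 0.0605 without the block), with 1 called without the block or without LPS-tolerant replicate 2. Amino acid and ATF4 genes counted 3 higher and 2 lower of 21, none without the block. There the cystine importer Slc7a11 rose (log2FC 1.47, adjusted p = 0.00755, and 0.0574 without LPS-tolerant replicate 1 and 0.0559 without the block), and the mTORC1 inhibitor gene Ddit4 fell (log2FC -1.31, adjusted p = 0.00538, and 0.192 without the block). Without LPS-tolerant replicate 1, 0 members of that list were higher, and 1 was without LPS-tolerant replicate 3 or LPS-primed replicate 1 or 2. The count of lower members was 1 without each sample other than LPS-tolerant replicate 1. Among 16 prostaglandin and leukotriene genes only Ptges, prostaglandin E synthase, was called (log2FC 1.04, adjusted p = 0.0275), and its call was lost without the block (0.132) and in 5 of the 6 fits with a sample left out, all but that without LPS-tolerant replicate 2, at adjusted p between 0.0605 and 0.116. Pla2g7, with the highest mean of that list, had a log2FC of 0.06 (adjusted p = 0.685).

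Clock genes and chromatin genes were tested as well. Of 17 clock genes 3 were higher and 4 lower, 1 and 3 without the block. Besides Nfil3, the output factor Dbp fell from 87.8, 118 and 79.7 to 30.4, 44.9 and 32.9 normalized counts (log2FC -1.40 ± 0.24, adjusted p = 0.000619), and the repressor gene Bhlhe40 rose from 395, 408 and 380 to 1010, 643 and 780 (log2FC 1.03 ± 0.16). The count of lower clock genes was 2 without replicate 2 of either group. Of 14 genes that write, read or erase H3K9 methylation, 4 were lower and none higher, 1 without the block. Ehmt2, which encodes the methyltransferase G9a, fell from 1890, 1888 and 1801 to 1356, 1253 and 1170 (log2FC -0.56 ± 0.10, adjusted p = 0.000725). The related Ehmt1 (log2FC -0.06), the HP1 gene Cbx5 (-0.09) and Suv39h1 (-0.47) did not pass, at adjusted p of 0.771, 0.889 and 0.276, and Setdb2 (0 to 8 raw counts per sample) and Kdm4d (0 to 2) were too low to test. With 1 sample left out, 1 H3K9 gene was called without LPS-tolerant replicate 3 and 2 without LPS-tolerant replicate 1 or LPS-primed replicate 1 or 3.

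Few members of the cell cycle lists were called. Of 42 S-phase genes 2 were higher and 3 lower, with a median log2FC of -0.38, and of 58 G2/M-phase genes 3 were higher and 2 lower, with a median of -0.14. The shares of called genes, 5 of 42 and 5 of 58, lay below the 18% of all tested genes. The replication licensing factor Cdt1 rose from 139, 243 and 115 to 639, 484 and 376 normalized counts (log2FC 1.61 ± 0.19, adjusted p = 2.02e-05), and Pcna, the sliding clamp of DNA polymerase, from 1307, 1675 and 1292 to 2311, 3437 and 2695 (log2FC 0.99 ± 0.20). The S-phase median was -0.20 without LPS-tolerant replicate 1, -0.58 without LPS-tolerant replicate 2 and -0.22 without LPS-primed replicate 3. Without the block no G2/M gene was called. The count of lower G2/M genes was 0 without LPS-tolerant replicate 1 or LPS-primed replicate 3, 1 without LPS-tolerant replicate 3 or LPS-primed replicate 2 and 4 without LPS-tolerant replicate 2, and the median of that list turned to 0.08 without LPS-tolerant replicate 1 and to 0.14 without LPS-primed replicate 3, and it was -0.33 and -0.24 without LPS-tolerant replicates 2 and 3 and -0.31 without LPS-primed replicate 1. A fit of the 6 samples alone called 12 S-phase genes lower, and library size alone 6.

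Several other lists also changed their counts by over 1.5 times under another fit. The fit of the 6 samples alone called 7 antimicrobial, 7 arginine and polyamine, 6 ATF4, 5 heat shock, 5 receptor and adaptor and 4 prostaglandin genes higher. It called 6 G2/M, 5 unfolded protein response, 2 HIF and 2 cholesterol export genes lower. DESeq2 called 6 heat shock, 5 ATF4 and 0 prostaglandin genes higher and 4 G2/M genes lower. Library size alone called 1 ATF4 gene and 1 antigen presentation gene higher and 4 G2/M, 2 NRF2 and 2 HIF genes lower.

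The same dose and time in cells without priming gave a larger response, with 7148 genes called (63.2%), 29.5% higher and 33.8% lower. The difference of both responses, second minus first dose, was called for 4091 genes (36.2%), 1939 higher (17.2%) and 2152 lower (19%), and for 2691 without the block. Of 742 genes (6.56%) that the first dose raised by more than 2 on the log2 scale, the second dose raised 213 (28.7%, against 9.67% of all tested genes) and lowered 52 (7.01%, against 8.32%), and 477 were not called. The median log2FC of these 742 genes was 3.37 with the first and 0.40 with the second dose. The difference was called lower for 642 of them and higher for none, a description only, since the genes were selected by first-dose values that enter the difference. Of 639 genes (5.65%) that the first dose lowered by more than 2, 129 (20.2%) were lowered and 25 (3.91%) raised by the second. Of the genes called higher after the second dose, 69.4% were also called higher by the first and 11.8% lower.

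Individual genes fell into several patterns when the 4 groups were set side by side. Tnf had 89.4 normalized counts in unstimulated, 9520 in LPS-stimulated, 302 in LPS-primed and 2284 in LPS-tolerant BMDMs as means of 3 samples, so that both doses raised it, the second by less (difference in log2FC -3.80 ± 0.34, adjusted p = 1.15e-07). Ccl3 had a smaller difference (-2.12), with a mean of 14937 after the first and 5006 after the second dose. Il6 was at 0 counts in every unstimulated sample and had a mean of 783 normalized counts after the first dose. Nfil3 (log2FC 3.96 with the first dose), Nos2 (9.53) and Il15 (2.50) rose with the first dose and fell with the second, and the difference was called for each. Sqle rose with both doses and by more with the second (difference 0.90 ± 0.30, adjusted p = 0.0227). Of the 24 cholesterol synthesis genes, 17 had a called difference in that direction and none in the other, beside 17.2% of all tested genes called higher. The sources used here do not say whether unstimulated and LPS-stimulated BMDMs had a medium change. Dose and fresh medium can therefore not be told apart in the difference of both responses. Ccnd1 was not called with the first dose (log2FC -0.75, adjusted p = 0.176) but rose with the second, a difference of 4.17 ± 0.72. Its mean was 215 normalized counts in unstimulated and 29.9 in LPS-primed BMDMs, so the second rise began from a lower level. Id1 and Id3, which the first dose also raised, had no called difference, at -0.51 ± 0.71 and 0.60 ± 0.42. Among interferon-stimulated genes, 15 of 44 were called higher and 2 lower by the first dose, beside 29.5% and 33.8% of all tested genes. The difference was called lower for 25 of the 44, beside 19% of all tested genes.

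**Figure D3:**
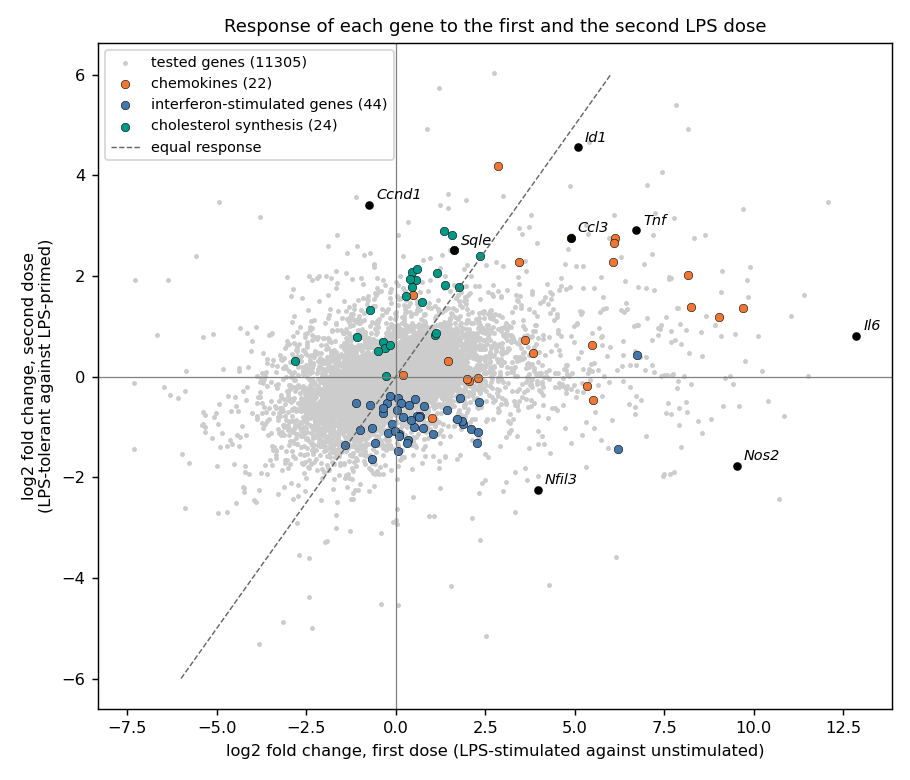
Log2 fold change of the 11305 tested genes with the first dose (horizontal) and the second dose (vertical), with 3 gene lists coloured and the dashed line marking an equal response. Most chemokines lie right of that line and above 0, 43 of 44 interferon-stimulated genes lie below 0, and most cholesterol synthesis genes lie left of the line.

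**Figure D4:**
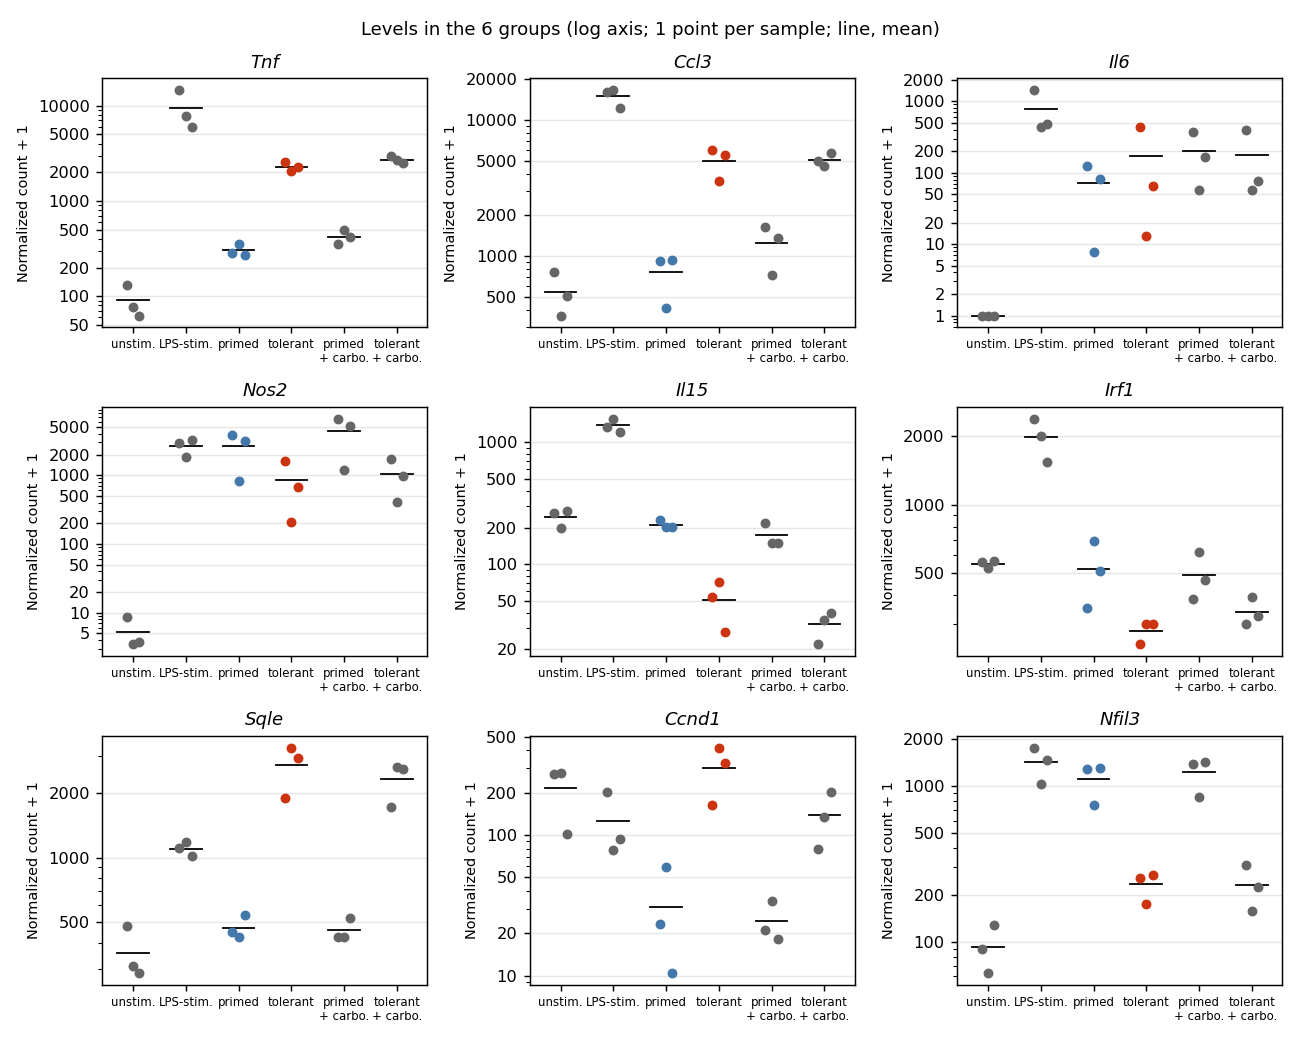
Normalized counts plus 1 (log axis) of 9 genes in the 6 groups of 3 samples, with 1 point per sample and the mean as a line. Tnf and Ccl3 are higher in LPS-tolerant than in LPS-primed BMDMs but below the LPS-stimulated samples, while LPS-tolerant Il15, at 26.8 to 70.8, lies below all samples of the other groups without carboplatin.

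The samples with carboplatin gave the second dose again without sharing a sample with the main comparison, and 9.2% of tested genes were called there. Both comparisons came from the same fit and shared its spread estimates and replicate block, so their calls are not independent. Of the 1093 genes called higher, 1081 (98.9%) had a log2FC above 0 with carboplatin and 496 were called there (5.28% of all tested genes were called higher). Of the 941 called lower, 921 (97.9%) were below 0 and 353 were called (3.92% of all tested genes). None was called in the opposite direction, and over all tested genes 77.4% had the same sign. The median log2FC of the higher genes was 0.70 without and 0.48 with carboplatin, and that of the lower genes -0.80 and -0.53. The genes were selected by their values without carboplatin, so these medians are a description. The difference of the second dose with and without carboplatin was called for 0 genes by edgeR, with 330 at an unadjusted p under 0.05 (2.92% of all tested genes). That share lies below the 0.05 that such a threshold would pass on average if no gene differed. The count was 131 without the block and 331 with RLE scaling. Tnf rose with carboplatin as without (log2FC 2.66 against 2.92), as did Sqle (2.34 against 2.52), and Nfil3 fell (-2.42 against -2.24). Of the cholesterol synthesis genes 16 were called higher with carboplatin, and of the interferon-stimulated genes 10 were called lower.

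**Figure D5:**
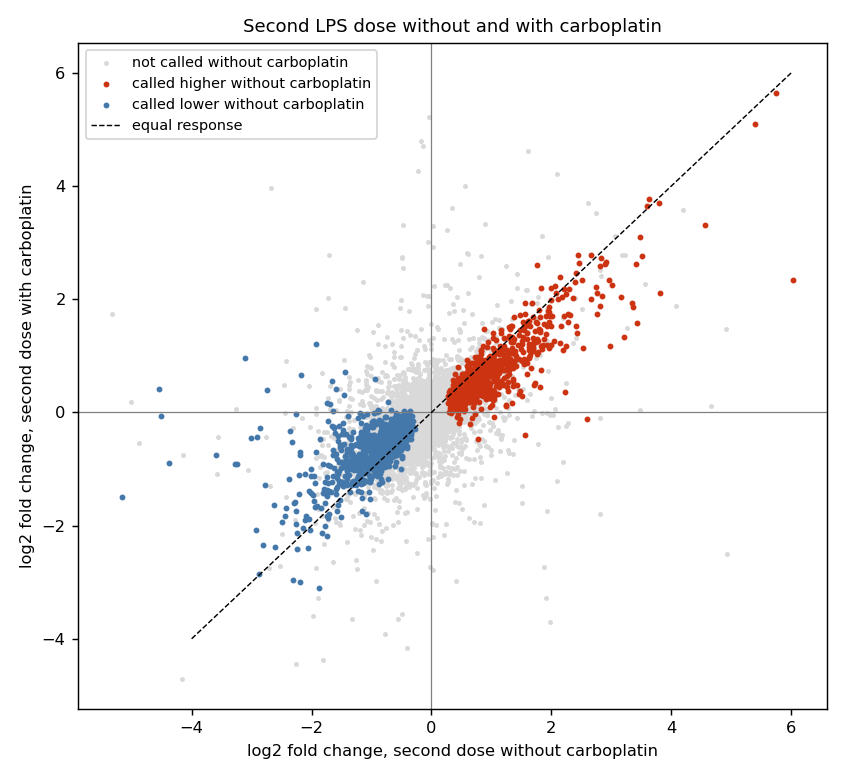
Log2 fold change of the second dose without carboplatin (horizontal) and with carboplatin (vertical) for each tested gene, coloured by its call without carboplatin. Coloured points lie mainly in the quadrants of the same sign, 1081 of 1093 for the higher and 921 of 941 for the lower genes.

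Sequences before the transcription start were read to show what letters the members that moved together carry. The window was the 250 bases upstream of the canonical transcript of GENCODE vM39 on GRCm39, given for 11022 tested genes, and both strands were searched. An ISRE core, GAAA, any 2 bases and GAAA, was found in 20 of 43 interferon-stimulated genes (46.5%), in 8.54% of the genes called lower by more than 1 on the log2 scale, in 1.39% of those called higher by more than 1 and in 3.08% of all. An NF-kB site was found in 7 of 22 chemokines (31.8%), in 6.60% of the higher genes, 5.06% of the lower genes and 4.44% of all. An AP-1 site, TGANTCA, was in 8.68% of the higher and 7.59% of the lower genes against 4.75% of all. The CRE, TGACGTCA, was in 2.78% and 0.633% against 2.14%, and the CArG box in 2.43% and 0.949% against 1.12%. None of the 10 named higher genes held an NF-kB site in this window, and 1, Olr1, held an AP-1 site.

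The 100 bases before the start of 5 genes show these letters in genes that rose and in genes that fell. Olr1 falls under the rule for named genes, and the other 4 were chosen after their values and matches were seen, as the clearest example of each match. Capitals mark the AP-1 site in Olr1 (chr6:129484129-129484228, minus strand), overlapping NF-kB sites in Cxcl2 (chr5:91051630-91051729, plus strand), a pair of adjoining CArG boxes in Dusp5 (chr19:53517432-53517531, plus strand), an NF-kB site in Nos2 (chr11:78811513-78811612, plus strand) and an ISRE core on the opposite strand in Trim30a (chr7:104114408-104114507, minus strand). All are written 5′ to 3′ towards the start:
Olr1, higher: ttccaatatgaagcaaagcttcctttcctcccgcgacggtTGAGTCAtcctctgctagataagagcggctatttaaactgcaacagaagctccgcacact
Cxcl2, higher: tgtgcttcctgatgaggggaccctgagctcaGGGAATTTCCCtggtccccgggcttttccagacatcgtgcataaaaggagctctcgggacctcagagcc
Dusp5, higher: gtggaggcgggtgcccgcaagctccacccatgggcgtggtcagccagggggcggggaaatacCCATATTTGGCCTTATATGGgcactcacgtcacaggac
Nos2, lower: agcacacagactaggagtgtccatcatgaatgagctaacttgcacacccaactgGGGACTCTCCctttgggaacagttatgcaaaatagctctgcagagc
Trim30a, lower: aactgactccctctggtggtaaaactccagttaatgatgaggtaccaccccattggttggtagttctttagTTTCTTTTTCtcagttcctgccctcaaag
NF-kB letters stand before Cxcl2, which rose, and before Nos2, which fell. A match is a description of letters and not evidence of binding.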

How the data were processed

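RNA of 18 BMDM samples was sequenced as poly(A) libraries (TruSeq stranded mRNA, HiSeq, paired ends). The authors used HISAT2 with GRCm39 and deposited raw counts per gene symbol from HTSeq-count. Versions, annotation and strand setting are not given in the sources used here. The 5 lines that name no gene were removed (42.2% to 43.2% of the read pairs of the 6 samples), leaving 6869667 to 14708099 counts per sample. For genes without a count in the LPS-primed samples, 3 counts over that group were taken as an upper limit. The observed LPS-tolerant counts were used without their sampling error, so these fold values are not full lower bounds. The SE given with a log2FC takes in counting error and the spread between samples. PCR copies were not removed by molecular identifiers.

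Counts of all 18 samples were fitted in edgeR 4.0.16 (R 4.3.3) by the quasi-likelihood test, with group means, replicate number as a block, TMM scaling and filterByExpr (minimum count 10, minimum total 15), which kept 11305 of 22852 symbols. P-values were adjusted by the Benjamini-Hochberg method across all of these genes, at a threshold of 0.05. The log2FC uses a prior count of 0.125, and its SE was taken from the F statistic (log2FC over root F). The study used DESeq2 and names no pairing. The block was set together with the comparison. Once group means were removed, same-numbered LPS-tolerant and LPS-primed samples correlated at 0.574, 0.415 and 0.313. Those with other numbers had a mean correlation of -0.21. Removing group means makes such values negative where same-numbered ones are positive, so they give no separate support for the block. No 2 samples of the same group agreed within sampling noise, and samples of different groups were not compared in this way. The labels do not say that each replicate was a separate animal, so p-values measure the spread between these samples.

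The comparison, the 24 gene lists, the marker lists and the rule for named genes were chosen with earlier results of these data known. The rule names the 10 largest rises and falls among called genes with the same direction in 3 pairs and a mean of at least 50 in the higher group, leaving out gene models; up to 4 called genes with the smallest adjusted p for each list and direction, or the member with the highest mean where fewer than 2 were called; and genes that the study measured otherwise. Called genes of the rule that are not described are counted with their lists, and some named genes are not reported here. Positions and upstream sequences are from GENCODE vM39, with which 97.5% of the tested genes matched by symbol. The fit was tested on simulated data, with changes placed in genes above a minimum mean count. It called 68 of 100 genes changed by 1 on the log2 scale and 98 of 100 changed by 2. The simulated LPS-primed and LPS-tolerant means held no replicate differences. A gene that was not called may therefore still have changed. Alternatives were no block, RLE or library size alone, no filter, at least 10 counts in each of the 6 samples, DESeq2 1.42.0, limma-voom (limma 3.58.1), the 6 samples alone, a prior count of 2, an absolute log2FC over 1, and leaving out each sample. The promoter sequences were to be those of named higher genes; as only Olr1 held a match, 4 others were added.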

Additional observations from a re-analysis of the deposited data

Results flagged for a closer look

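The response to the second dose differed from that to the first in 4091 of 11305 genes by the test of the difference itself (edgeR, adjusted p under 0.05). The differences below are second minus first dose on the log2 scale. They are for genes named above for the largest rises and falls and genes that the study measured by other assays. Among genes that the second dose raised, the difference was -3.80 for Tnf, -3.21 for Fosl1, -1.07 for Myc, -8.60 for Olr1 and -4.62 for Csf3, so the first dose raised each of them more. It was 4.17 for Ccnd1 and 1.89 for Nr4a1, which the second dose raised more on this scale, from lower starting levels. Mean normalized counts in unstimulated, LPS-stimulated, LPS-primed and LPS-tolerant BMDMs were 215, 124, 29.9 and 301 for Ccnd1. For Nr4a1 they were 45.3, 155, 7.08 and 78.7. Among genes that the second dose lowered, it was -6.22 for Trim30c, -5.25 for Tnfsf14 and -6.20 for Nfil3, which the first dose raised, and -1.12 for Zfp36l1, which the first dose also lowered. It was 1.93 for Pdcd4 and 1.56 for Arrdc3, which the first dose lowered more. Genes with no call for the second dose had differences of -12.06 (Il6), -6.49 (Cd40), -1.63 (Marco) and -3.66 (Saa3). Il6 had 0 counts in all unstimulated samples, and Olr1, Csf3 and Fosl1 had 0 in at least 1 of them and a mean of 0.622, 0.849 and 1.68 normalized counts, so the size of these 4 differences depends on the prior count.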

How the results depend on the processing

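Of 116 named genes called, none changed direction under any setting. These genes were selected by their calls in the same samples, so this is a description and no support for the calls. Without the replicate block 60 kept their call, and 109 or more did under RLE, library size alone, DESeq2 and limma-voom. All 116 kept it without the filter, in the fit of the 6 samples and with a prior count of 2. The prior count does not enter the p-values, so that last setting could not change a call. With single samples left out, 83 to 100 genes kept their call. With no replicate block 713 genes were called, 407 higher and 306 lower, and the difference between doses was called for 2691. The no-block adjusted p stands beside each described gene whose call it changes. With single samples left out, 1135 to 1500 genes were called, 668 to 857 higher and 467 to 712 lower. At an absolute log2FC over 1, 616 genes were called, 291 higher and 325 lower. Beyond a log2FC of 2, 31 higher and 14 lower genes were left with at least 10 counts in each of the 6 samples, which tested fewer genes; 31 were lower in the fit of the 6 samples, where the cause was not tested, and 25 with a prior count of 2, which shrinks low counts. Values of genes that were not called and crossed 0 were -0.0374 (Pla2g7), -0.0009 (Pkm) and -0.0451 (Saa3) with library size alone. With single samples left out, the log2FC ranged from -0.0882 to 1.4763 for Il6, -0.001 to 0.4512 for Cd40, -0.0471 to 0.1256 for Saa3 and -0.3275 to 0.2337 for Cbx5. Of 15486 symbols with a count, 11305 passed the filter, and changes of the others were not tested at this depth.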
